A study of Homo sapiens with 2 samples.

Results

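The genes described here code for proteins of the human mitochondrial ribosome. They were taken as every row of the deposited gene table whose symbol starts with MRPL or MRPS followed by a digit, a rule that used no measured value. It found 80 of the 37364 rows. Of these, 75 code for mitoribosomal proteins, 49 of the large and 26 of the small subunit. The other 5 are MRPS36, which RefSeq now names KGD4 and which codes for a component of the 2-oxoglutarate dehydrogenase complex, the antisense RNA MRPL23-AS1, and the pseudogenes MRPL42P5, MRPL45P2 and MRPS31P5. RNA was sequenced from D407 cells, a human retinal pigment epithelial (RPE) cell line, in 2 libraries: 1 of cells treated with clusterin (a glycoprotein that cells secrete and that acts as a chaperone) and 1 of control cells. Both came from the same line, grown in DMEM with fetal bovine serum and antibiotics and sequenced from poly(A)-selected RNA. The dose and duration of clusterin and the handling of the control are not given in the sources used here. These are bulk libraries, in which fewer cells of a type and less RNA per cell cannot be told apart. With 1 library per group, no difference has a replicate check and none is tested here.

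The mitochondrial ribosome translates the few messages encoded in mitochondrial DNA, which in human cells code for membrane-embedded subunits of the respiratory chain and of ATP synthase. Its RNA is made in the mitochondrion, while all of its proteins are encoded in the nucleus, made in the cytosol and imported. Part of these proteins descend from bacterial ribosomal proteins, and part joined the particle only in the lineage that led to mitochondria. The RPE is a tissue with a high demand for mitochondrial respiration.

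The level is RPKM, a read number scaled to transcript length and library size. Library totals recovered from the table were about 33180000 reads for clusterin and 38240000 reads for control, and the table does not show whether a read is a single read or a pair. Reads were recovered for all 80 rows. A gene was called measured at a mean of at least 1 RPKM over the 2 libraries. This held for 13244 genes and for 77 of the 80 rows, 74 of them mitoribosomal protein genes. MRPS18B, MRPL42P5 and MRPS31P5 were below it. Of 10 RPE marker genes, 3 (BEST1, MITF and STRA6) reached 1 RPKM, and 5, among them the visual cycle enzyme gene RPE65, were listed at 0 in both libraries. Of 6 simple epithelial markers 4 reached it, as did 3 of 6 fibroblast and smooth muscle markers, while none of 13 neuronal, leukocyte and endothelial markers did. The 10 RPE markers summed to 20.7 RPKM with clusterin and 20.9 RPKM in control. The 6 simple epithelial markers summed to about 1000 RPKM with clusterin and 985 RPKM in control. The 6 fibroblast and smooth muscle markers summed to 72.5 RPKM with clusterin and 74.1 RPKM in control, mostly from DCN and LUM.

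The 74 measured mitoribosomal genes ranged from 3.62 to 138 RPKM with clusterin and from 5.27 to 125 RPKM in control. Their median was 20.8 RPKM with clusterin and 21.1 RPKM in control, against 5.61 RPKM with clusterin and 5.93 RPKM in control for all measured genes. Of the 74, 71 lay above the median level of all measured genes and 57 above its upper quartile of 13.5 RPKM. Most of these proteins enter the ribosome as a single copy, yet the highest level was 38.2 times the lowest with clusterin and 23.7 times in control. Together these genes took 0.271% of the clusterin reads (exact binomial 95% interval 0.269 to 0.272) and 0.276% of the control reads (0.275 to 0.278), intervals that cover counting error only. For reference, the median ratio of levels over all measured genes, clusterin over control, was also below 1, at 0.953.

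**Figure D1:**
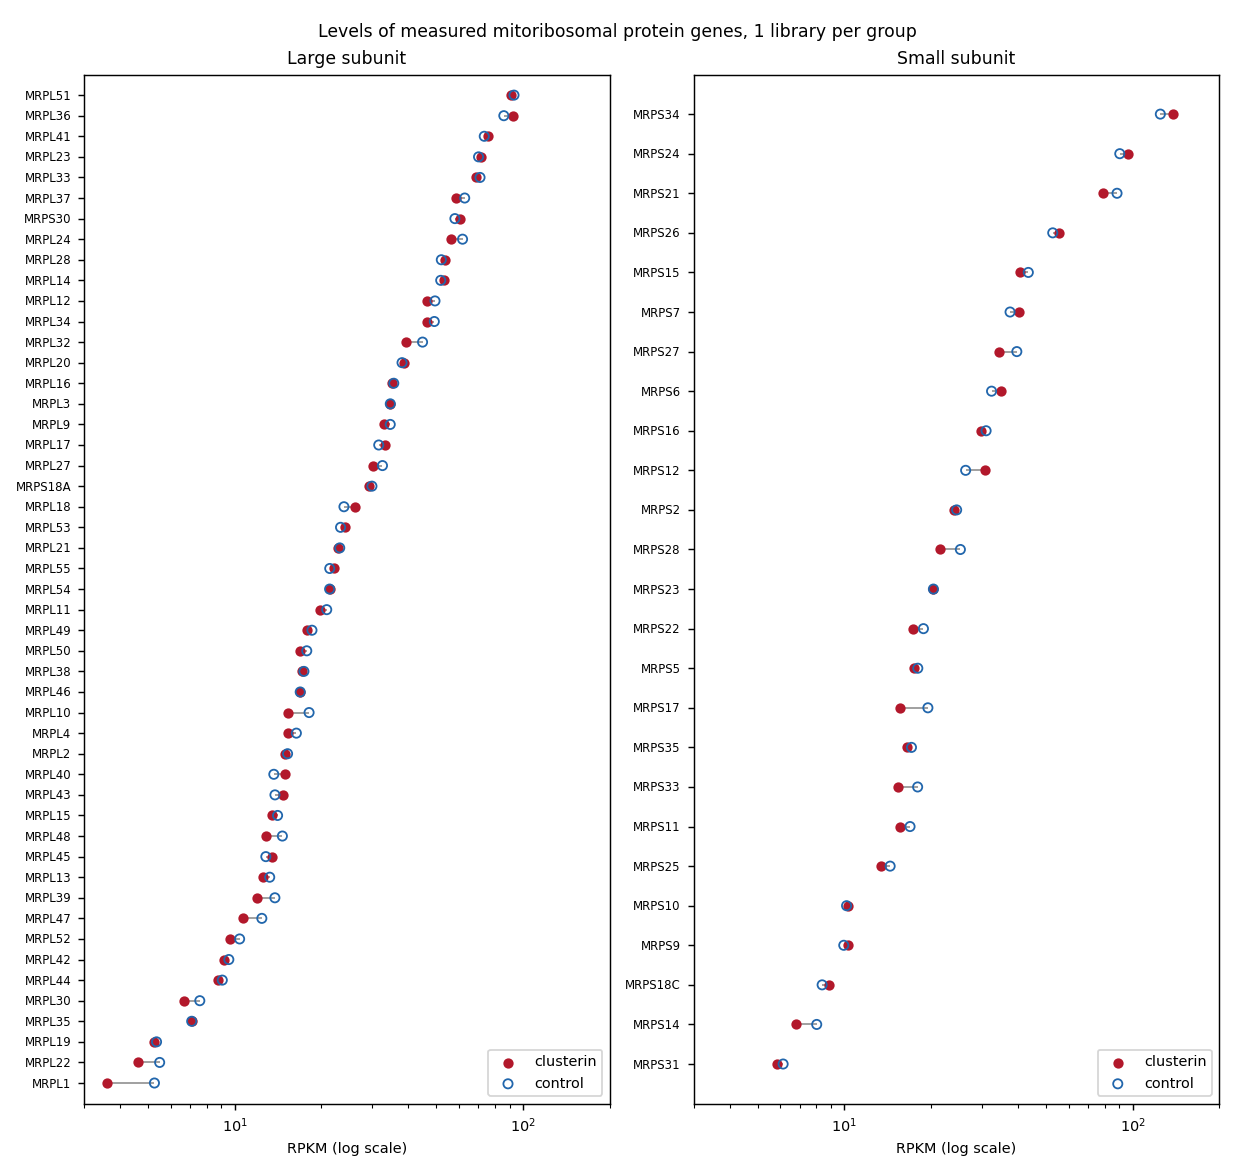
Levels of the 74 measured mitoribosomal protein genes in RPKM on a log scale, with the large subunit on the left and the small subunit on the right. Filled points are the clusterin library and open points the control library. Within most genes the points nearly coincide, while genes range from about MRPL1 (3.62 RPKM with clusterin) to MRPS34 (138 RPKM).

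MRPS34, a mitochondria-specific protein of the small subunit, was the most abundant, at 138 RPKM with clusterin and 125 RPKM in control. MRPS24 followed at 96.4 RPKM with clusterin and 90.3 RPKM in control. Its locus shares exons with the readthrough gene URGCP-MRPS24, listed at 77.3 RPKM with clusterin and 73.5 RPKM in control, so how reads were divided between the pair is uncertain. MRPL36 stood at 92.6 RPKM with clusterin and 85.9 RPKM in control, MRPL51 at 90.6 RPKM with clusterin and 93.2 RPKM in control, and MRPS21 at 78.8 RPKM with clusterin and 88.3 RPKM in control. At the low end of the 74 genes by mean level were MRPL1 at 3.62 RPKM with clusterin and 5.27 RPKM in control, MRPL22 at 4.64 RPKM with clusterin and 5.50 RPKM in control, MRPL19 at 5.24 RPKM with clusterin and 5.36 RPKM in control, MRPS31 at 5.83 RPKM with clusterin and 6.13 RPKM in control, and MRPL35 at 7.10 RPKM in both libraries. MRPL30, next by its mean, was lower than MRPL35 with clusterin only, at 6.66 RPKM with clusterin and 7.58 RPKM in control. MRPS34 was highest and MRPL1 lowest in both libraries, but MRPL1, MRPL19 and MRPL22 lay close together in control and further apart with clusterin.

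The start regions of the genes at the extremes of the 2 libraries are shown with 2 motifs marked. Each window runs 5′ to 3′ on the gene's strand from 250 bases before to 50 after a RefSeq start on GRCh38.p14, and capitals mark CCGGAAG, the core bound by ETS factors such as GABPA, and AAGATGGC, bound by YY1, on either strand. Shown are the 2 genes called higher with clusterin in the authors' deposited table (MRPS12 at chr19:38930694-38930993, plus strand, and MRPS34 at chr16:1773085-1773384, minus strand), the gene with the lowest difference (MRPL1 at chr4:77862580-77862879, plus strand), the gene with the smallest q among the lower ones (MRPS27 at chr5:72320191-72320490, minus strand), and MRPL46 (chr15:88467339-88467638, minus strand), whose window also holds the start of MRPS11 as the table places it.
MRPS12: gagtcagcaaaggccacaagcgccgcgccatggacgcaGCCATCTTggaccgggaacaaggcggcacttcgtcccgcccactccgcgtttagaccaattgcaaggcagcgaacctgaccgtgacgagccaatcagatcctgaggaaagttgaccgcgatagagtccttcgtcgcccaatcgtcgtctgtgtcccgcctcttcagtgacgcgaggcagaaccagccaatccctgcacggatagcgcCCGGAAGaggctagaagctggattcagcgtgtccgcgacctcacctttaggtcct
MRPS34: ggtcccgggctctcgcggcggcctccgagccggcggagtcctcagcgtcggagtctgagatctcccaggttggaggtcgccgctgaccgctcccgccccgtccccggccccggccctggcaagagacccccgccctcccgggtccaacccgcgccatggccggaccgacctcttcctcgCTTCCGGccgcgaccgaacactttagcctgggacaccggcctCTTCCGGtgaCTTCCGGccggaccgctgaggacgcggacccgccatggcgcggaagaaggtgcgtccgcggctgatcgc
MRPL1: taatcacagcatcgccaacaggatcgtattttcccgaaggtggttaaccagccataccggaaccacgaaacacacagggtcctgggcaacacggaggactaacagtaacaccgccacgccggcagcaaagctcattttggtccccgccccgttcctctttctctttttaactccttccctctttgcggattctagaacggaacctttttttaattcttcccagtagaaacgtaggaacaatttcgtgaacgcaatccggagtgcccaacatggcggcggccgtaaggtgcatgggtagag
MRPS27: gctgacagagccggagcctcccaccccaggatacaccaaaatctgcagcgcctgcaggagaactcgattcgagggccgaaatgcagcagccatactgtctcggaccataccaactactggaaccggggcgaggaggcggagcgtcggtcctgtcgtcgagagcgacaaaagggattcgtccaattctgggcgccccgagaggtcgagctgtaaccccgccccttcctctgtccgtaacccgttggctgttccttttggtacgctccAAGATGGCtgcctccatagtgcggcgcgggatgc
MRPL46: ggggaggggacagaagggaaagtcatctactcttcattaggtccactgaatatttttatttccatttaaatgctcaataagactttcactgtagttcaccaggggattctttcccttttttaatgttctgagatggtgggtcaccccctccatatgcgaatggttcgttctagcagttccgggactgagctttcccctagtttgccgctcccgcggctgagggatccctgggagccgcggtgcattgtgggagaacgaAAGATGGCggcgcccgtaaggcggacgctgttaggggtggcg
MRPS12 holds 1 match to each motif, MRPS34 has 3 ETS matches, MRPS27 and MRPL46 have 1 YY1 match each, and MRPL1 has 0 of either in this window. The MRPL1 window lies downstream of the start that the table gives for this gene, 77861955, and does not contain it.

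A RefSeq window was at hand for 67 of the 75 mitoribosomal genes, and where a gene had several the one nearest the table's start was used. Some windows, among them those of MRPL1, MRPL36, MRPL44 and MRPL55, do not contain the start that the table gives. The ETS core CCGGAAG was in 43.3% of these 67 windows (29), against 21.5% of the windows of 8484 measured protein-coding genes and 10.3% of all 35116 windows. The YY1 core AAGATGGC was in 29.9% (20), against 6.06% of the measured protein-coding genes and 2.89% of all windows. At least 1 of these cores was in 41 windows (61.2%, against 26.1% for measured protein-coding genes), and 8 windows held both. The core of the NRF1 motif, CGCATGCG, was in 3 windows (MRPL17, MRPL22 and MRPS18C, 4.48%), against 4.34% of the measured protein-coding genes and 2.02% of all windows. A CCAAT box was in 29.9% against 37.8% of the measured protein-coding genes, and TATAAA in 4.48% against 5.26%. Both strands were searched, the cores can overlap each other, and a match describes letters only. The 29 measured genes with the ETS core had a median log2 difference of -0.02 and the 37 without it -0.06. For the YY1 core the medians were -0.02 in 19 genes with it and -0.05 in 47 without, and no test of these gaps was made.

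**Figure D2:**
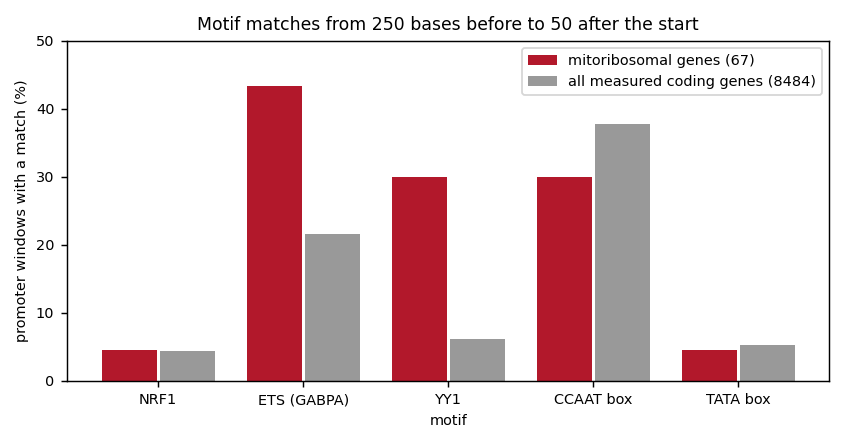
Share of promoter windows, in percent, with a match to each motif: 67 mitoribosomal genes (left bar of each pair) and 8484 measured protein-coding genes (right bar). The ETS core is in 43.3% against 21.5% and the YY1 core in 29.9% against 6.06%.

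Many of these starts lie close to the start of another gene that runs the other way. Of the 75 mitoribosomal genes, 23 (30.7%) had such a protein-coding neighbour within 1000 bp, counting starts that overlap by up to 200 bp, against 9.93% of 18317 protein-coding genes and 14.4% of the 10001 measured ones. One pair is made of both subunits: MRPL46 of the large and MRPS11 of the small subunit start 51 bp apart on chromosome 15. MRPL46 stood at 16.9 RPKM in both libraries, and MRPS11 at 15.6 RPKM with clusterin and 16.9 RPKM in control. Other partners are SARS2, the mitochondrial seryl-tRNA synthetase gene, beside MRPS12, the complex I subunit genes NDUFS6 beside MRPL36 and NDUFB5 beside MRPL47, and PTCD2, a mitochondrial RNA-binding protein gene, beside MRPS27. MRPL47 and NDUFB5 were both lower, at log2 differences of -0.20 and -0.24. MRPS27 and PTCD2 went opposite ways, at -0.20 and 0.11. Loci of 21 mitoribosomal genes overlapped another gene, 18 on the opposite strand and 3 on the same strand. The share of all genes with such an overlap was not worked out, so this count has no comparison. Whether counting used strand is not given in the sources used here, so reads of such overlaps cannot be told apart.

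Between the libraries the levels of the mitoribosomal genes differed by less than 2-fold throughout. The difference used is log2((clusterin RPKM + 1)/(control RPKM + 1)). Its median was -0.04 over the 77 measured MRPL and MRPS genes and -0.06 over all 13244 measured genes. Of the 77, 51 (66.2%) lay below 0, against 70.2% of all measured genes, and 33 lay below the median of all genes. None of the 77 was 2-fold apart in either direction, against 0.219% of all measured genes, and 75 lay within 0.25 of 0. The middle of their distribution, from the lower to the upper quartile, ran from -0.10 to 0.04, against -0.13 to 0.02 for all genes. When the control was rescaled so that all genes had a median of 0, the members' median was 0.02 and 32 lay below 0. With quantile normalization it was 0.01, so the sign of their median depends on the scaling.

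For each gene the ratio of the levels was given a 95% interval by converting exact Clopper-Pearson limits on the share of its reads that came from clusterin, which cover counting error only. Reads of the 74 measured mitoribosomal genes over both libraries ran from 437 to 9382, with a median of 2298. The median ratio of all measured genes was 0.953. The interval lay wholly below it for 8 of 77 genes (10.4%), against 10.2% of all measured genes and 11% of the 9375 genes within the read range of the mitoribosomal genes. It lay wholly above for 16 genes (20.8%), against 11.7% of all measured genes and 12.3% of those within that read range. For the other 53 the interval held the median ratio. The read range was set by the 74 mitoribosomal genes, while the 77 include MRPL23-AS1 and MRPL45P2, which had fewer reads. It bounds the reads of the compared genes but does not match their distribution. Set against a ratio of 1, 17 intervals lay wholly below, 5 wholly above, and 55 held it. The all-gene median ratio of 0.953 is itself below 1. The shares of all genes against a ratio of 1 were not worked out, so these counts have no comparison.

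In the authors' deposited table, a q-value below 0.05 marked 11 of the 80 genes as lower with clusterin (13.8%, against 10.4% of all genes above 0 and 14.6% of measured genes). The 2 marked as higher in the authors' deposited table (2.5%, against 1.63% of genes above 0 and 1.99% of measured genes) were MRPS12 and MRPS34. Of the 11 lower ones, 10 are among the 46 homologues of bacterial proteins, 6 of the large subunit (MRPL1, MRPL10, MRPL22, MRPL24, MRPL30 and MRPL32) and 4 of the small (MRPS14, MRPS17, MRPS21 and MRPS28). The other one, MRPS27, is among the 29 mitochondria-specific genes, and no test of a difference between these classes was made. For 277 of 279 small RNA genes, whose reads follow from their length without the p-value, the deposited p-value lay within 0.1 percent of what read sampling alone gives at 1 library share fitted to these genes. With 1 library per group, the q-values compare 2 libraries and hold no variation between cultures.

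**Figure D3:**
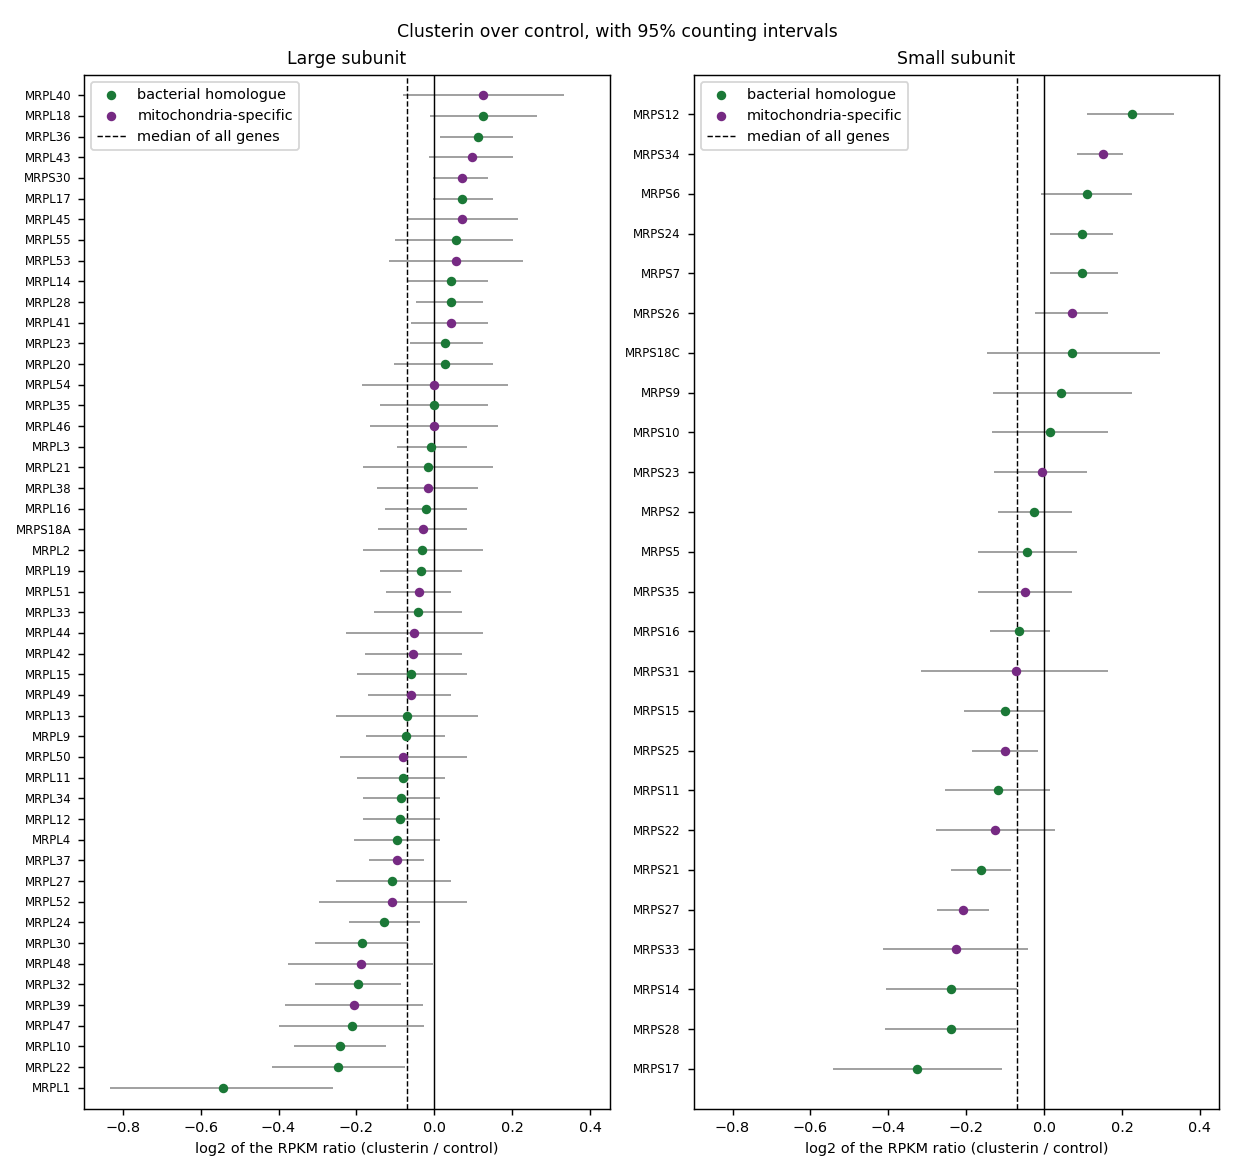
Log2 of the RPKM ratio, clusterin over control, for the 74 measured mitoribosomal genes, with 95% counting intervals as bars, large subunit on the left and small subunit on the right. Green points are homologues of bacterial proteins and purple points mitochondria-specific proteins. The dashed line is the median of all measured genes (a ratio of 0.953), which most bars cross, while MRPL1 lies far to its left and MRPS12 and MRPS34 to its right.

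Large subunit homologues of bacterial proteins held the lowest difference of all. MRPL1 (chr4:77861955-77952790, plus strand), the counterpart of bacterial L1 at the stalk where spent tRNA leaves the ribosome, had 163 reads with clusterin and 274 in control. Its levels were 3.62 RPKM with clusterin and 5.27 RPKM in control, a log2 difference of -0.44 and a ratio of 0.686 (counting interval 0.561 to 0.835), and its q in the authors' deposited table was 0.00273. It is also the least abundant of the 74 measured mitoribosomal protein genes in both libraries. MRPL10 (chr17:47823272-47831541, minus strand) is the counterpart of the bacterial protein that anchors the other stalk, at which translation factors dock. It stood at 15.3 RPKM with clusterin and 18.1 RPKM in control, a ratio of 0.846 (0.779 to 0.918). Its partner there, MRPL12, stood at 46.7 RPKM with clusterin and 49.6 RPKM in control, and its interval (0.880 to 1.01) held the median ratio of all genes. MRPL11, at the base of the same stalk, likewise held it, at 19.7 RPKM with clusterin and 20.9 RPKM in control (0.872 to 1.02).

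Of the other large subunit homologues, MRPL22, whose bacterial counterpart lines the exit tunnel, stood at 4.64 RPKM with clusterin and 5.50 RPKM in control (ratio 0.843, 0.749 to 0.949). MRPL47 stood at 10.7 RPKM with clusterin and 12.4 RPKM in control (0.863, 0.759 to 0.981), and MRPL32, whose maturation by a mitochondrial protease is a step of ribosome assembly, at 39.2 RPKM with clusterin and 44.9 RPKM in control (0.873, 0.808 to 0.943). At the upper end MRPL18 stood at 26.2 RPKM with clusterin and 24.0 RPKM in control (1.09, 0.993 to 1.2), and MRPL36 at 92.6 RPKM with clusterin and 85.9 RPKM in control (1.08, 1.01 to 1.15). MRPL36 overlaps NDUFS6 at its start on the opposite strand, and NDUFS6 stood at 171 RPKM with clusterin and 182 RPKM in control. MRPL23, at 71.8 RPKM with clusterin and 70.2 RPKM in control, lies across the locus of the abundant RNA H19 on the opposite strand. Over the 30 genes of this class the median difference was -0.05, with 22 below 0 and 14 under the all-gene median.

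Large subunit proteins classed as mitochondria-specific lay between -0.19 and 0.12. The 19 genes had a median difference of -0.03, with 11 below 0 and 5 under the all-gene median. The authors' deposited table marked 0 of these 19 at a q below 0.05, against 14.6% of all measured genes as lower and 1.99% as higher. With only 19 genes, whether the class departs from these shares was not tested. MRPL39 had the lowest difference (-0.19), at 12 RPKM with clusterin and 13.8 RPKM in control, and MRPL40 the highest (0.12), at 14.9 RPKM with clusterin and 13.7 RPKM in control (ratio 1.09, 0.945 to 1.26). MRPL43 stood at 14.7 RPKM with clusterin and 13.8 RPKM in control (1.07, 0.991 to 1.15). The class includes 2 genes with small subunit symbols. MRPS30, now placed in the large subunit as mL65, stood at 60.8 RPKM with clusterin and 58.1 RPKM in control, and MRPS18A, now mL66, at 29.4 RPKM with clusterin and 29.96 RPKM in control.

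Small subunit homologues of bacterial proteins held the highest difference. MRPS12 (chr19:38930708-38933020, plus strand) is the counterpart of bacterial S12, which sits at the decoding centre. Its reads numbered 1348 with clusterin and 1333 in control, although the clusterin library was the smaller. Its levels were 30.7 RPKM with clusterin and 26.4 RPKM in control, a log2 difference of 0.21 and a ratio of 1.17 (1.08 to 1.26), with a q of 0.0019 in the authors' deposited table. Its head-to-head neighbour SARS2, which overlaps it on the opposite strand, stood at 7.76 RPKM with clusterin and 7.30 RPKM in control. MRPS6, which shares its locus and strand with the transporter gene SLC5A3 (19.7 RPKM with clusterin and 16.4 RPKM in control), stood at 34.98 RPKM with clusterin and 32.4 RPKM in control (1.08, 0.995 to 1.17). MRPS7 stood at 40.2 RPKM with clusterin and 37.6 RPKM in control (1.07, 1.01 to 1.14) and MRPS24 at 96.4 RPKM with clusterin and 90.3 RPKM in control (1.07, 1.01 to 1.13).

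At the other end of that class, MRPS17 (chr7:55951918-55955341, plus strand) had 302 reads with clusterin and 436 in control. It stood at 15.6 RPKM with clusterin and 19.5 RPKM in control, a log2 difference of -0.31 and a ratio of 0.798 (0.687 to 0.927). MRPS28 stood at 21.4 RPKM with clusterin and 25.3 RPKM in control (0.847, 0.753 to 0.952), and MRPS14 at 6.80 RPKM with clusterin and 8.02 RPKM in control (0.848, 0.755 to 0.953). MRPS21, among the most abundant members, stood at 78.8 RPKM with clusterin and 88.3 RPKM in control (0.893, 0.847 to 0.942). The 16 genes of this class had a median difference of -0.03 and 9 of them were below 0, 7 also below the median of all genes.

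Among the small subunit proteins classed as mitochondria-specific, the 2 with the most reads went opposite ways. MRPS27 (chr5:72219409-72320257, minus strand), a pentatricopeptide repeat protein that binds RNA, had 3170 reads with clusterin and 4217 in control. It stood at 34.4 RPKM with clusterin and 39.7 RPKM in control, a ratio of 0.866 (0.827 to 0.907), and had the smallest q of the members in the authors' deposited table, 1.07e-07. MRPS34 (chr16:1771895-1773139, minus strand) had 4596 reads with clusterin and 4786 in control. At 138 RPKM with clusterin and 125 RPKM in control its ratio was 1.11 (1.06 to 1.15), with a q of 5.2e-05 in the authors' deposited table. MRPS33 stood at 15.3 RPKM with clusterin and 17.96 RPKM in control (0.855, 0.751 to 0.972). The 9 measured genes of the class had a median difference of -0.06, with 7 below 0 and 5 under the all-gene median.

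The 3 MRPS18 genes descend from the gene of bacterial S18 and code for proteins that occupy different places. MRPS18C and MRPS18B are in the small subunit and MRPS18A is in the large. Despite this descent, MRPS18A and MRPS18B were counted as mitochondria-specific, as in their systematic names mL66 and mS40. MRPS18A stood at 29.4 RPKM with clusterin and 29.96 RPKM in control, and MRPS18C at 8.82 RPKM with clusterin and 8.38 RPKM in control. MRPS18B (chr6:30617320-30626397, plus strand) was listed at 0.218 RPKM with clusterin and 0.219 RPKM in control, from 76 reads with clusterin and 88 in control. The transcript length behind these values, 10512 bases, exceeds the 9078 bases of its own locus. Such a length was found for 93 of 112 protein-coding genes in the major histocompatibility region of chromosome 6 around it, against 107 of 12602 protein-coding genes in all, the 93 included. All 30 protein-coding genes that start within 500 kb of MRPS18B were below 1 RPKM, the highest at 0.645 RPKM with clusterin and 0.566 RPKM in control. The level of MRPS18B therefore cannot be compared with those of the other members.

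Of the rows that are not mitoribosomal protein genes, MRPS36 stood at 7.67 RPKM with clusterin and 7.18 RPKM in control (ratio 1.07, 0.918 to 1.24). MRPL23-AS1, opposite MRPL23, stood at 1.92 RPKM with clusterin and 2.12 RPKM in control. The pseudogene MRPL45P2 was at 1.01 RPKM with clusterin and 1.27 RPKM in control, MRPS31P5 at 0.526 RPKM with clusterin and 0.494 RPKM in control, and MRPL42P5 at 0.452 RPKM with clusterin and 0.353 RPKM in control, the last from 10 reads with clusterin and 9 in control. Pseudogenes can share reads with their parent genes, so these values are uncertain.

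Genes of the same pathway, taken from lists of known members, differed by similar small amounts. The 7 mitoribosomal genes with other symbols had a median difference of -0.05, from CHCHD1 (-0.16, at 23.6 RPKM with clusterin and 26.6 RPKM in control) to AURKAIP1 (0.11, at 41.9 RPKM with clusterin and 38.6 RPKM in control). The 28 assembly factors had a median of -0.07, with TRUB2, a mitochondrial pseudouridine synthase, lowest at -0.20 and RNMTL1, a methyltransferase of the mitochondrial ribosomal RNA, highest at 0.21. The 16 translation factors had a median of -0.05, and their lowest was the initiation factor gene MTIF3 (-0.38), at 6.21 RPKM with clusterin and 8.36 RPKM in control. GFM2, which splits ribosomes after termination, was their highest at 0.11. The 16 genes of mitochondrial transcription and RNA processing had a median of -0.04, from the elongation factor gene TEFM (-0.29) to the RNA polymerase gene POLRMT (0.19). Of 12 regulators of mitochondrial biogenesis, 10 were measured, with a median of -0.01 and with YY1 highest (0.18, at 22.4 RPKM with clusterin and 19.6 RPKM in control) and GABPB2 lowest (-0.14). None of these genes was 2-fold apart. At a q below 0.05, the authors' deposited table marked 4 assembly factors, 3 translation factors and 1 processing gene as lower, and 1 assembly factor, 1 processing gene and 1 regulator as higher. Over all measured genes, 14.6% were marked lower and 1.99% higher in the authors' deposited table.

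The cytosolic ribosome and the respiratory chain served as points of comparison. The 84 measured cytosolic ribosomal protein genes had a median level of 381 RPKM with clusterin and 403 RPKM in control, and a median difference of -0.10, with 76 below 0 and 59 under the all-gene median. The authors' deposited table marked 61 of the 84 cytosolic genes as lower and 4 as higher. The 78 measured nuclear genes for oxidative phosphorylation had a median difference of -0.08, with 62 below 0 and 50 under the all-gene median. The authors' deposited table marked 23 of the 80 such genes listed above 0 as lower and 0 as higher. Over all genes above 0 it marked 10.4% as lower and 1.63% as higher, and over measured genes 14.6% and 1.99%. These all-gene shares are not matched for read number, on which the q-values depend. With the control rescaled to a median of 0 for all genes, the medians were 0.02 for the MRPL and MRPS genes, -0.03 for the cytosolic ribosomal protein genes and -0.01 for the respiratory chain genes. Cytosolic ribosomal protein genes have far more reads and many processed pseudogenes, and no test of these differences between lists was made.

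**Figure D4:**
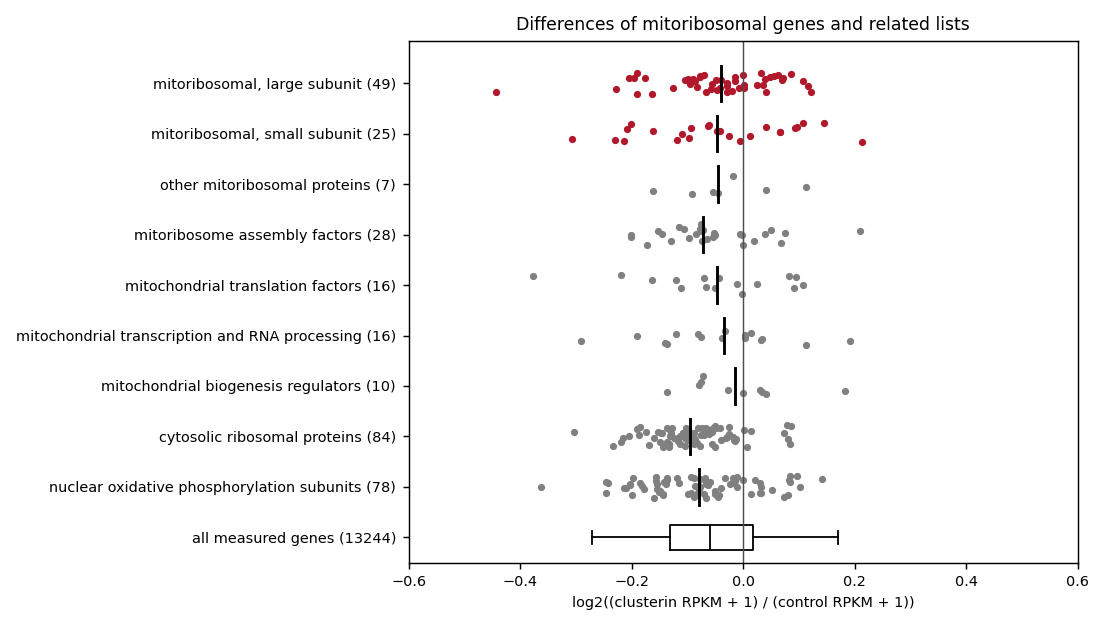
Log2((clusterin RPKM + 1)/(control RPKM + 1)) per measured gene, 1 point per gene, for both subunits of the mitochondrial ribosome (red), related lists (grey) and all 13244 measured genes (box from lower to upper quartile, whiskers from 5 to 95 percent). Black lines are medians, the number of genes is in brackets, and 2 points beyond 0.6 are not drawn. The large subunit median is -0.04 and the small subunit median -0.05, both between the cytosolic ribosomal protein genes (-0.10) and 0, and both above 0 with the control rescaled (0.03 and 0.02).

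Within the mitoribosomal genes, the difference was set beside level, base composition of the start region and transcript length. Across the 74 measured genes, its Pearson correlation with log2 mean RPKM was 0.36 (Spearman 0.30), against 0.05 (0.04) across 10132 measured protein-coding genes. With the GC content of the promoter window it was 0.38 (0.40) across 66 genes, against 0.07 (0.07) across 8454. With log2 transcript length it was -0.11 (-0.13), against -0.08 (-0.10). The 33 genes with a GC content below 60.2% had a median difference of -0.09 with 26 below 0, and the 33 at or above it a median of 0.02 with 16 below 0. The first of these also had lower levels, with medians of 16.9 RPKM with clusterin and 18.8 RPKM in control, against 30.7 RPKM with clusterin and 31.6 RPKM in control for the second. By length, 13 of 25 genes under 1000 bases lay below 0, 24 of 34 from 1000 to under 2000 bases, and 12 of 15 at 2000 bases or more. These are 52%, 70.6% and 80% of the members, against 65.1%, 65.1% and 75.6% of all measured protein-coding genes in the same length classes. All points share the same 2 libraries, genes are not independent replicates, and what lies behind these relations was not tested.

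**Figure D5:**
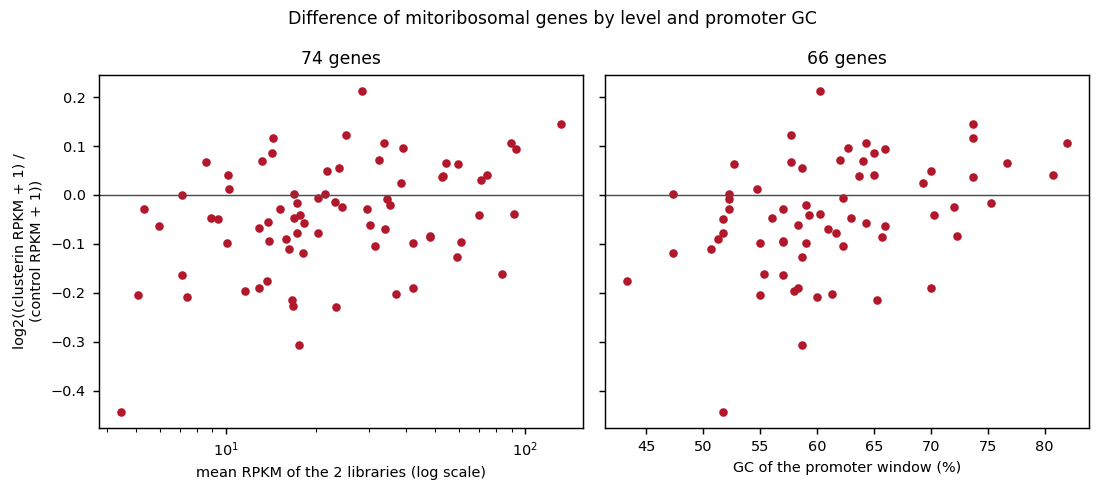
Log2((clusterin RPKM + 1)/(control RPKM + 1)) of the measured mitoribosomal genes against the mean RPKM of the 2 libraries on a log scale (left, 74 genes) and against the GC content of the promoter window in percent (right, 66 genes). Each point is a gene. Points spread widely around a weak upward trend (Pearson 0.36 and 0.38), and MRPL1 is the lowest point of both panels.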

How the data were processed

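The deposited table gives an RPKM level of every gene in each library together with, per the file headers, the authors' log2 fold change and their p-value with its q-value. No header names the levels' unit, which was therefore worked out from the numbers themselves. For 476 of 518 small RNA genes above 0, level times length was a whole number within 0.02 at 1 fixed total per library. Reads were then recovered for 20521 of 20642 genes above 0 (99.4%) as the transcript length at which both values were whole and gave the deposited p-value. The tools named in the submitters' processing notes are TopHat, Bowtie and Cuffdiff, with the build hg19. Versions are not given in the sources used here. All 80 members had a start or an end within 2000 bp of that in RefSeq GRCh38.p14. This is the build of the printed coordinates and of the sequences, taken from RefSeq. Rows at 0 on both sides (16722) have a deposited p-value and q-value of 0 and were not counted as calls.

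Differences were computed as log2((clusterin RPKM + 1)/(control RPKM + 1)) for genes averaging 1 RPKM or more, in Python 3.11.15 with numpy 2.4.6, pandas 2.3.3 and scipy 1.17.1. The recovery was tested on simulated reads. Groups came from the labels. Members with the 10 highest and 10 lowest differences, the 5 highest and 5 lowest mean levels, the MRPS18 genes and the rows that are not mitoribosomal are given in full, and of most related lists the extremes; 1 withheld item is not reported here. The members and lists were chosen with earlier results of these data known. The alternatives were other pseudocounts, filters, scalings and thresholds.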

Additional observations from a re-analysis of the deposited data

How the results depend on the processing

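Reads without molecular identifiers and a single library per group limit every value: intervals cover counting error only. The number of MRPL and MRPS genes below 0 was 51 of 77 and became 32 once control levels were rescaled to bring the all-gene median to 0, which by construction lifts every gene by about the same amount. The lower calls in the authors' deposited table numbered 11 at a q below 0.05 and 5 at a q below 0.01 (MRPL1, MRPL10, MRPL32, MRPS21 and MRPS27), while both higher calls remained. The share of all genes called at a q below 0.01 is not given here, so the counts at that threshold have no comparison. The median over the members was -0.04, and 0.02 after rescaling and 0.01 after quantile normalization, when 45 and 43 of 77 genes lay above 0 in place of 26. The share of members below 0 was 41.6% and 44.2% under these scalings, against 50% and 51.2% of all genes. Rescaling also moved MRPS27 to -0.13, MRPS30 to 0.13 and MRPS34 to 0.21, each in its main direction. The median of the mitochondria-specific small subunit genes was the exception among the role groups, as it was 0.00 or lower under both scalings (-0.0025 and -0.0057). Other pseudocounts (0.1 and 5 RPKM), other minimum levels (none and 5 RPKM), protein-coding members only, and ratios without a pseudocount were also tried. Under these, none of the counts or medians over the members moved beyond its tolerance, and none of the 77 measured genes was 1.5-fold apart. The gap between the members and all genes was less stable. With a pseudocount of 5 RPKM, the members' median was -0.0355, against -0.0362 for all genes. Then 38 of 77 lay below the median of all genes, in place of 33. No paired analysis was possible because there is 1 library per group, and for the same reason leaving out a replicate could not be done.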

Other observations

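Beside the symbols used above, 6 rows listed by Ensembl identifier belong to RNAs named after mitoribosomal genes in the reference table of names. MRPS9-AS1 was the most abundant, at 6.53 RPKM with clusterin and 5.88 RPKM in control. The divergent transcript MRPL20-DT stood at 2.02 RPKM with clusterin and 1.79 RPKM in control, MRPS30-DT at 0.586 RPKM with clusterin and 0.875 RPKM in control, and MRPS35-DT at 0.198 RPKM with clusterin and 0.327 RPKM in control. MRPS9-AS2 was listed at 0 in both. MRPL23-AS1 appears a second time under its identifier, at 1.90 RPKM with clusterin and 2.13 RPKM in control, close to the 1.92 RPKM with clusterin and 2.12 RPKM in control of its symbol. The 75 mitoribosomal genes lie on 21 chromosomes, with 8 each on chromosomes 1 and 2 and 7 each on chromosomes 11 and 17.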
